A study of Mus musculus with 6 samples.

Results

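Cohesin is the protein ring that holds sister chromatids together from S phase to anaphase and that extrudes chromatin loops in interphase. The 10 genes described here encode the subunits of the somatic ring and the proteins that put it on chromatin, take it off or keep it there. They are Smc1a, Smc3, Rad21, Stag1, Stag2, Nipbl, Wapl, Pds5a, Pds5b and Cdca5, chosen by name from the 19938 genes that the array annotation named with a single symbol. Each of the 10 had 1 transcript cluster (the set of probes that reads 1 transcript unit), so no choice among clusters was needed, and all 10 lay above the level set for detection.

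Transcript levels were measured on 6 Affymetrix mouse gene arrays, 3 from Rb1L/L and 3 from Rb1+/+ mouse embryonic fibroblasts (MEFs), which are mixed connective tissue cells grown out of an embryo. Both genotypes were cultured from E13.5 embryos up to passage 4 and gave total RNA while proliferating; no drug or other agent is named in the labels. The L allele, carried on both copies in Rb1L/L cells, is known to alter the cleft by which the retinoblastoma protein pRb binds LXCXE-motif partners, and pRb also restrains E2F transcription factors. The study compared the genotypes as 3 MEF pairs; the labels do not say what the members of a pair share, or that the cultures came from separate embryos, so p-values measure the spread between these samples.

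In the cohesin cycle, Nipbl loads the ring, which consists of the ATPase subunits Smc1a and Smc3, the closing subunit Rad21 and either Stag1 or Stag2. Wapl, working with Pds5a or Pds5b, opens the ring and releases it. During S phase Smc3 is acetylated and sororin, the product of Cdca5, then binds Pds5 proteins and counters Wapl, so that cohesion lasts until the protease separase cuts Rad21 at anaphase. Dividing fibroblasts pass through this cycle at every division.

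Of the 10 genes, Cdca5 and Rad21 rose in Rb1L/L cultures and none fell; the other 8 did not pass the test. Cdca5 was 1.74-fold higher and Rad21 1.2-fold higher. Log2 values were tested with limma, Benjamini-Hochberg adjusted p-values were taken across the 15455 genes tested, and a gene passed below 0.05; 7.12% of these genes passed as higher in Rb1L/L, and 12.2% passed in either direction. Without adjustment, 4 of the 10 genes and 28.7% of those tested had a p below 0.05. The median log2 fold change of the 10 genes (Rb1L/L minus Rb1+/+) was 0.14, beside -0.02 over all tested genes, and 9 of the 10 had a positive fold change, beside 43.6% of all tested genes. With 10 genes, 2 calls cannot be read as a property of the whole group. Rad21 passed in only 1 of the 6 fits without 1 array. The median of the 10 genes was 0.07 without Rb1+/+ replicate 1 and 0.03 without both arrays numbered 1. In the latter fit the fold changes of Wapl, Pds5a and Pds5b turned negative (-0.01, -0.02 and -0.06).

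**Figure D1:**
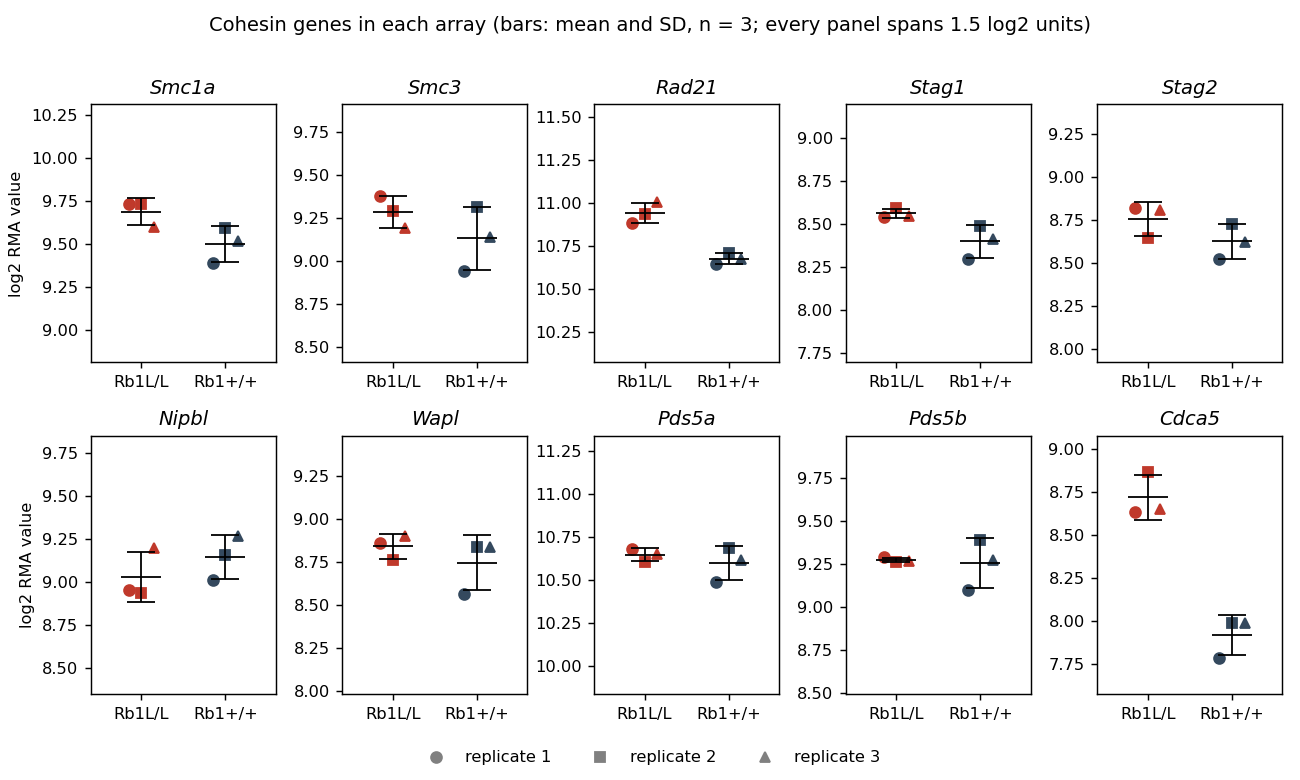
Log2 RMA value of each cohesin gene (y axis, 1 panel per gene, each spanning the same number of log2 units) in the 3 Rb1L/L and 3 Rb1+/+ arrays, with the replicate number as the symbol and the mean and SD as bars (n = 3 per genotype). The Cdca5 groups are far apart, the Rad21 groups are apart by less, and Rb1+/+ replicate 1 is the lowest array for 9 of the 10 genes.

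Rad21 encodes the kleisin subunit that closes the ring and is cut by separase. Its log2 values were 10.89, 10.94 and 11.003 in Rb1L/L replicates 1, 2 and 3, against 10.64, 10.71 and 10.68 in Rb1+/+ replicates 1, 2 and 3. The groups did not overlap, and the lowest Rb1L/L array stood above the highest Rb1+/+ array. The means were 10.94 ± 0.06 in Rb1L/L and 10.68 ± 0.03 in Rb1+/+ (SD, n = 3 each), a log2 fold change of 0.27 ± 0.06 (SE; 95% interval 0.13 to 0.40; limma adjusted p = 0.0242). Within the same-numbered pairs the differences were 0.24, 0.23 and 0.33, so Rad21 was higher in 3 of 3 pairs by amounts that lay close together. The adjusted p was 0.0761 without Rb1L/L replicate 2, and the call was lost in 5 of the 6 fits without 1 array, although the fold change stayed between 0.24 and 0.29 in them. By size of rise Rad21 ranked 1220 of 15455 tested genes.

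Smc1a and Smc3 encode the coiled-coil ATPases that pair at the hinge of the ring. Smc1a measured 9.73, 9.73 and 9.60 in Rb1L/L, against 9.39, 9.59 and 9.52 in Rb1+/+ replicates 1, 2 and 3. The Smc1a groups did not overlap, but Rb1L/L replicate 3 and Rb1+/+ replicate 2 nearly touched. Its log2 fold change was 0.19 ± 0.07 (SE; 95% interval 0.02 to 0.35; limma adjusted p = 0.129), which did not pass. Smc3 measured 9.38, 9.29 and 9.19 in Rb1L/L, against 8.94, 9.31 and 9.14 in Rb1+/+, and the groups overlapped. The log2 fold change of Smc3 was 0.15 ± 0.10 (SE; 95% interval -0.07 to 0.38; adjusted p = 0.34). Most of it came from the pair numbered 1, with a difference of 0.43, while the pairs numbered 2 and 3 gave -0.02 and 0.05.

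Stag1 and Stag2 encode the alternative HEAT-repeat subunits of the ring; Stag1-cohesin is known for telomere cohesion and Stag2-cohesin for the centromere. Stag1 measured 8.54, 8.59 and 8.55 in Rb1L/L, against 8.30, 8.49 and 8.41 in Rb1+/+. These groups did not overlap, and all 3 pair differences were positive at 0.24, 0.10 and 0.14. The log2 fold change of Stag1 was 0.16 ± 0.07 (SE; 95% interval 0.01 to 0.31; limma adjusted p = 0.144). Stag2 measured 8.82, 8.64 and 8.81 in Rb1L/L, against 8.52, 8.73 and 8.62 in Rb1+/+, with overlap, because Rb1+/+ replicate 2 was above Rb1L/L replicate 2. Its log2 fold change was 0.13 ± 0.08 (SE; 95% interval -0.04 to 0.31; adjusted p = 0.3). The within-array difference of the paralogs, Stag1 minus Stag2, changed by 0.03 (exact two-sided permutation p = 1, 3 arrays against 3, for which the smallest possible p is 0.1), and this sign turned without Rb1L/L replicate 2 (-0.04).

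In all, 4 of the 10 genes, namely Cdca5, Rad21, Smc1a and Stag1, had Rb1L/L arrays that all lay above all Rb1+/+ arrays. Over all tested genes 16.2% did so, and 34.5% had groups that did not overlap in either direction.

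Smc1a and Stag2 lie on the X chromosome, and the cultures differed in sex type. Xist, the RNA of the inactive X, was at log2 4.79 in Rb1L/L replicate 1 and 5.13 in Rb1+/+ replicate 1 and at 11.44 or above in the other 4 arrays, and the Y-linked Eif2s3y was at 8.47 and 8.36 in those same arrays and at 3.63 or below elsewhere. Kdm5d and Uty were likewise highest there. The pair numbered 1 was therefore of male type and the others of female type, in both genotypes alike. The pair differences of the male-type pair were 0.34 for Smc1a and 0.30 for Stag2, the largest of the 3 pairs for both genes. This was not particular to the X-linked genes. The same pair also gave the highest difference for the autosomal genes Smc3 (0.43), Wapl (0.30), Stag1, Nipbl, Pds5a and Pds5b. Rad21 and Cdca5 were the exceptions. The part of sex type in the pair differences was not tested, since 1 pair is of that type.

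Nipbl encodes the large subunit of the cohesin loader, and it was the only member of the 10 with a negative fold change. It measured 8.95, 8.93 and 9.20 in Rb1L/L, against 9.01, 9.15 and 9.26 in Rb1+/+. The groups overlapped, since Rb1L/L replicate 3 was above Rb1+/+ replicates 1 and 2, yet each Rb1L/L array was below the Rb1+/+ array of its number (-0.06, -0.22 and -0.07). The log2 fold change was -0.12 ± 0.09 (SE; 95% interval -0.33 to 0.10; limma adjusted p = 0.462), so no change was detected. Mau2, the partner of Nipbl in the loader, had a log2 fold change of 0.01 ± 0.05 (SE; 95% interval -0.11 to 0.14; adjusted p = 0.91).

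Wapl encodes the release factor. Its values were 8.86, 8.76 and 8.90 in Rb1L/L, against 8.57, 8.84 and 8.84 in Rb1+/+, with overlap. Only Rb1+/+ replicate 1 stood away from the other 5 arrays. The log2 fold change was 0.09 ± 0.09 (SE; 95% interval -0.10 to 0.29; limma adjusted p = 0.516), and it was -0.01 without both arrays numbered 1. Wapl lies on chromosome 14, as does Rb1.

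Pds5a and Pds5b encode the HEAT-repeat proteins that serve release together with Wapl and cohesion together with sororin. Pds5a measured 10.68, 10.61 and 10.65 in Rb1L/L, against 10.49, 10.69 and 10.62 in Rb1+/+. Pds5b measured 9.29, 9.26 and 9.27 in Rb1L/L, against 9.10, 9.39 and 9.27 in Rb1+/+. For both genes the Rb1L/L arrays lay inside the range of the Rb1+/+ arrays. The log2 fold changes were 0.05 ± 0.07 for Pds5a (SE; 95% interval -0.10 to 0.20; limma adjusted p = 0.667) and 0.02 ± 0.08 for Pds5b (SE; 95% interval -0.16 to 0.20; adjusted p = 0.895). Both signs turned when Rb1+/+ replicate 1 was left out, to -0.00 and -0.06. The intervals leave room for changes of up to 0.20 in log2 in either gene.

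Cdca5 encodes sororin, which keeps cohesin on replicated chromosomes and is degraded after mitosis. Its values were 8.64, 8.87 and 8.65 in Rb1L/L, against 7.79, 7.99 and 7.99 in Rb1+/+. The groups were separated by more than the range of either one. The means were 8.72 ± 0.13 in Rb1L/L and 7.92 ± 0.12 in Rb1+/+ (SD, n = 3 each), a log2 fold change of 0.80 ± 0.09 (SE; 95% interval 0.60 to 1.00; limma adjusted p = 0.00294). The pair differences were 0.85, 0.88 and 0.67. Cdca5 stayed past the threshold in 6 of 6 fits without 1 array and in the 3 fits without a pair (adjusted p = 0.00803 to 0.0151 and 0.021 to 0.0374). It ranked 83 of 15455 tested genes by size of rise and 62 by p.

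**Figure D2:**
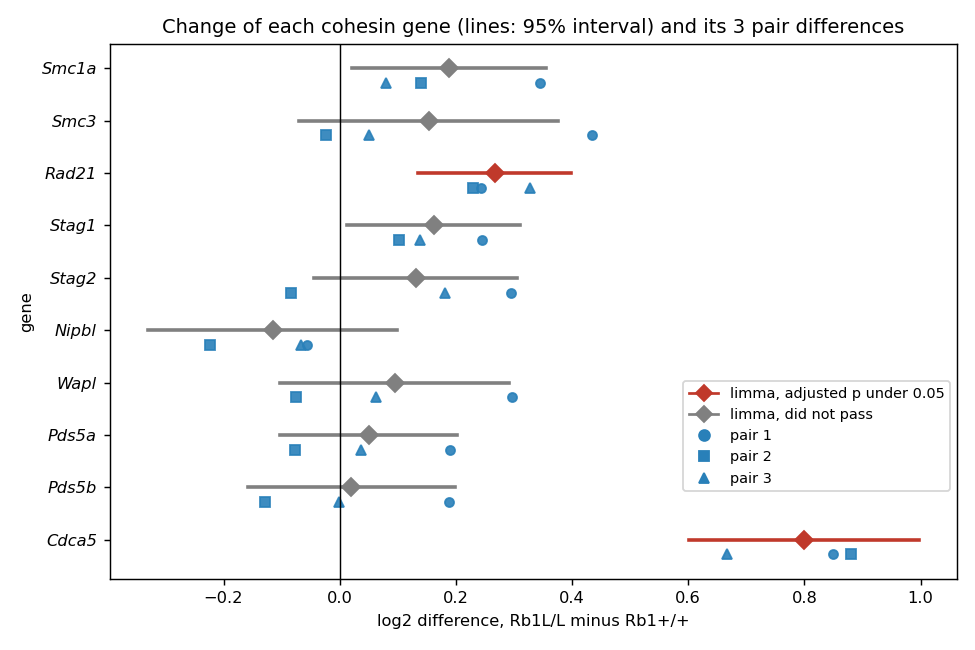
Log2 difference (x axis, Rb1L/L minus Rb1+/+) of each cohesin gene (y axis), with the limma estimate and its 95% interval as a diamond and line, in red where the adjusted p passed, and the 3 same-numbered pair differences as blue symbols below it. Cdca5 lies at 0.80 and Rad21 at 0.27, and Nipbl is the gene below 0. The pair numbered 1 gives the highest difference for 8 of the 10 genes, a share not counted over all tested genes.

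Changes of members with opposed or paired roles were set against each other within each array, for 5 pairs of genes. Cdca5 minus Wapl, the protector against the release factor, was between -0.25 and 0.10 in Rb1L/L arrays, against -0.85 to -0.78 in Rb1+/+ arrays, a difference of 0.70 in log2. Nipbl minus Wapl, the loader against the release factor, was between 0.09 and 0.29 in Rb1L/L, against 0.31 to 0.44 in Rb1+/+, a difference of -0.21. Neither pair of groups overlapped, and both had the smallest p that 3 arrays against 3 allow (exact two-sided permutation p = 0.1; adjusted p = 0.25 over the 5 pairs). No such comparison of 3 arrays against 3 could pass 0.05, so these values are a description. Smc1a minus Smc3 changed by 0.03 (exact permutation p = 0.7; -0.01 without Rb1+/+ replicate 2) and Pds5a minus Pds5b by 0.03 (exact permutation p = 0.4). The differences bear on the changes of the genes only, since levels of different probe sets cannot be compared.

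Promoter sequences of 7 of the 10 genes were found in the RefSeq table of build GRCm38.p6, as windows of 250 bases before to 50 bases after the annotated start; Rad21, Stag2 and Nipbl are not shown. Windows of 3 genes are printed, that of Cdca5 because it rose most and those of the Pds5 paralogs because they hold some of the same letters without a call. Capitals mark matches to the cell cycle homology region (CHR) letters TTTGAA, which the MuvB complex is known to bind, and to E2F-type letters, searched on both strands. The E2F-type letters were TTGGCGC, with TTCGCGC as a second form and TTCCCGC as another.
Cdca5, chr19:6084847-6085146, plus strand: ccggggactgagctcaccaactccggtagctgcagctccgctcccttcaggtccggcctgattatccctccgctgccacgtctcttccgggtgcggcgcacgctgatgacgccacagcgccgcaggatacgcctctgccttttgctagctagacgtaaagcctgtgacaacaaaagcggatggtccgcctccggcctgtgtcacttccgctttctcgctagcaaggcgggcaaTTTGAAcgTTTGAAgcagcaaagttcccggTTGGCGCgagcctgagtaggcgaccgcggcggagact
Pds5b, chr5:150673577-150673876, plus strand: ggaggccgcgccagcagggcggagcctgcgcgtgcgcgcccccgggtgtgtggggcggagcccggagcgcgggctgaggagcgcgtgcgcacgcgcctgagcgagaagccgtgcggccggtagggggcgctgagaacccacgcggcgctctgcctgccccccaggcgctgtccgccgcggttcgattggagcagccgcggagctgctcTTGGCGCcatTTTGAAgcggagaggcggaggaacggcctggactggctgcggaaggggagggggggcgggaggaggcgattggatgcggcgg
Pds5a, chr5:65698187-65698486, minus strand: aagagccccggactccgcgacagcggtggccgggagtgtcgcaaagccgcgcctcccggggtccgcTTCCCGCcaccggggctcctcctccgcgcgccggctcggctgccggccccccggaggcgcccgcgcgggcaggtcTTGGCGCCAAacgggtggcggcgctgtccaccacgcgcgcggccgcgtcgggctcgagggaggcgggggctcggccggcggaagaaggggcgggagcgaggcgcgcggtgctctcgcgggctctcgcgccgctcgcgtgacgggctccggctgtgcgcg

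The Cdca5 window held the CHR letters at 2 places, starting at positions -17 and -9 from the annotated start, and the E2F-type letters TTGGCGC at position 14 after it. The Pds5b window held 1 CHR match at -32 and 1 E2F-type match at -42. The Pds5a window had 3 E2F-type matches, of which those to TTGGCGC on either strand overlap, and no CHR match. Among the other 4 windows, Smc1a and Stag1 had 1 E2F-type match each, and Smc3 and Wapl had neither set of letters. The letters CCAAT, of the CCAAT box, were absent from the windows of Cdca5, Pds5a and Smc3. Of all 32851 promoter windows in the table, 17.9% held the CHR letters at least once, 2.31% at 2 or more places, 8.07% E2F-type letters and 37.4% the letters CCAAT. Matches are letters in a window and do not show that a factor binds there; the letters were chosen after the Cdca5 window had been read.

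The Cdca5 window is shared with a neighbour. Zfpl1, which encodes a zinc finger protein of the Golgi, starts on the opposite strand with its annotated start 122 bases away, and the windows of the genes overlap over 221 bases. Zfpl1 measured 8.56, 8.56 and 8.77 in Rb1L/L, against 8.68, 8.56 and 8.67 in Rb1+/+, with overlapping groups. Its log2 fold change was -0.00 ± 0.08 (SE; 95% interval -0.18 to 0.17; limma adjusted p = 0.978).

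The other genes of the cohesin cycle were taken from a list of 23, of which 21 were named and tested. Of these 21, 4 rose and none fell, beside 7.12% and 5.08% of all tested genes, with a median log2 fold change of 0.18; with the replicate number as a block 6 rose and none fell. Pttg1, which encodes securin, the inhibitor of separase, rose most. It measured 9.39, 9.48 and 9.60 in Rb1L/L, against 8.69, 8.997 and 9.03 in Rb1+/+, without overlap. Its log2 fold change was 0.58 ± 0.10 (SE; limma adjusted p = 0.0122), a rise of 1.5-fold. Tipin, of the fork protection complex that aids cohesion during replication, rose by 0.50 ± 0.08 (SE; adjusted p = 0.00841), and Wdhd1, a replisome adaptor needed for cohesion, rose by 0.29 ± 0.07 (SE; adjusted p = 0.0382, or 0.0522 after quantile normalization). Plk1, the mitotic kinase that strips cohesin from chromosome arms, rose by 0.38 ± 0.09 (SE; adjusted p = 0.0276).

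Other genes for the removal and protection of cohesin in mitosis did not pass in the fit without a block. Espl1, which encodes separase, had a log2 fold change of 0.25 ± 0.10 (SE; limma adjusted p = 0.125, or 0.0397 with the replicate block). The kinase gene Aurkb had 0.31 ± 0.08 (SE; adjusted p = 0.0504, or 0.0234 with the replicate block). Aurkb also passed without a block under 4 other settings (adjusted p = 0.0324 to 0.0486), and Espl1 under none of those run. Sgo1, whose product shugoshin shields centromeric cohesin, had 0.21 ± 0.10 (SE; adjusted p = 0.213), while Sgo2a had -0.21 ± 0.10 (SE; adjusted p = 0.201), and neither passed. Without Rb1+/+ replicate 1, Sgo2a passed as lower in Rb1L/L (log2 fold change -0.32, adjusted p = 0.0396). Of the 4 genes called, Plk1 and Wdhd1 each passed in just 1 of the 6 fits that left out an array, and Pttg1 and Tipin passed in 6 of 6. In the 3 fits without a pair, Plk1, Wdhd1 and Pttg1 lost their calls throughout (Pttg1 adjusted p = 0.0595 to 0.0643), and Tipin passed only without the pair numbered 3 (adjusted p = 0.0384, against 0.0951 and 0.0601 without pairs 1 and 2).

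No change was detected in the genes that set and remove the acetyl mark on Smc3. Esco1, an acetyltransferase gene, had a log2 fold change of -0.02 ± 0.06 in its brightest cluster (SE, limma adjusted p = 0.883) and turned to 0.00 after median centring. With the mean of its clusters Esco1 had -0.13 (limma adjusted p = 0.234), so its clusters differed in size of change. Esco2, the acetyltransferase gene of S phase, had 0.19 ± 0.11 (SE; 95% interval -0.06 to 0.44; adjusted p = 0.293), and its Rb1+/+ arrays spread from 7.82 to 8.30. Hdac8, whose product removes the mark, had 0.03 ± 0.07 (SE; adjusted p = 0.825). Ctcf, which encodes the DNA-binding protein that halts cohesin at loop anchors, had 0.01 ± 0.08 (SE; adjusted p = 0.948) and -0.02 after quantile normalization.

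**Figure D3:**
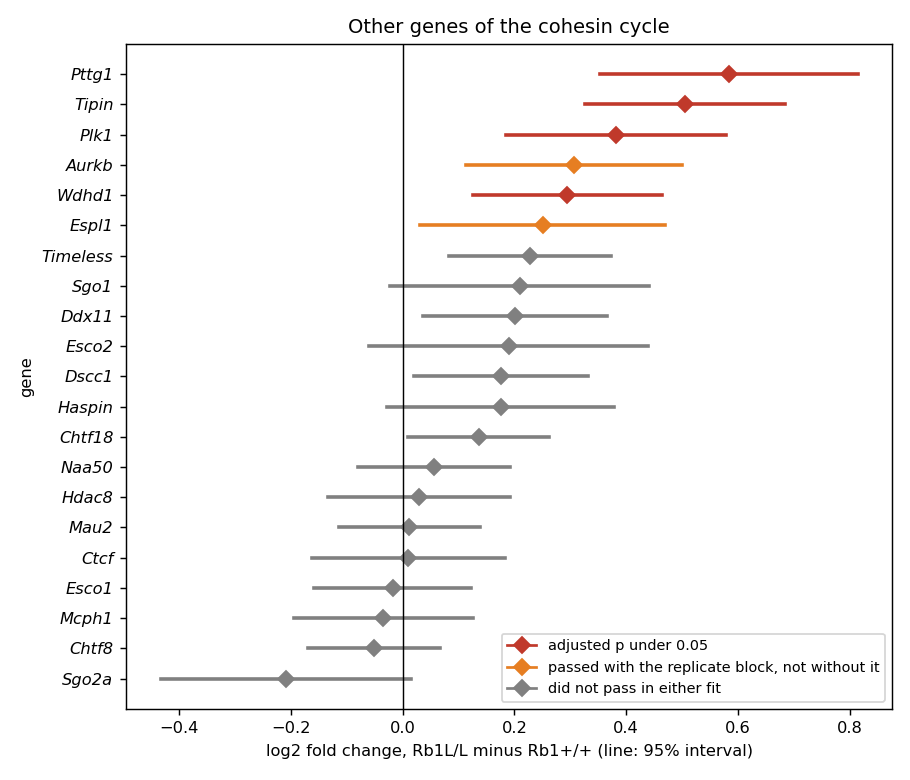
Log2 fold change (x axis, Rb1L/L minus Rb1+/+) of the 21 other genes of the cohesin cycle (y axis, ordered by value), with 95% intervals as lines; red marks an adjusted p that passed, orange one that passed with the replicate block but not without it, and grey the rest. Pttg1 at 0.58, Tipin at 0.50, Plk1 at 0.38 and Wdhd1 at 0.29 are in red, and the loader gene Mau2, Ctcf, Hdac8 and Esco1 lie close to 0.

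Meiotic forms of the subunits served as a check on cell type. Smc1b and Rad21l lay below the detection level, with means over the 6 arrays of 4.52 and 3.90. Stag3 and Rec8 lay just above it, with values from 5.52 to 5.83 and from 5.09 to 5.33, and their log2 fold changes were 0.10 (limma adjusted p = 0.543) and -0.10 (adjusted p = 0.43).

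The other complexes built on SMC proteins, and the genes of S phase and mitosis, were counted in the same fit. Over all tested genes 7.12% rose (7.99% with the replicate block) and 5.08% fell, and the median log2 fold change was -0.02. Of 8 condensin genes 4 rose (Ncaph2, Ncapd2, Ncapg and Ncapg2, by 0.30 to 0.49), with a median log2 fold change of 0.21. Of 9 genes of the SMC5/6 complex and its partners, which act in DNA repair, 3 rose (Slf2 by 0.35, Nsmce4a by 0.60 and Nsmce3 by 0.22), or 2 with the replicate block, and the median was 0.22. In both lists the ATPase genes did not pass: Smc2 had 0.02, Smc4 0.09, Smc5 0.23 and Smc6 0.06 (limma adjusted p = 0.909, 0.562, 0.096 and 0.633). The SMC genes of cohesin, Smc1a and Smc3, did not pass either.

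Of 27 S phase genes 22 rose (21 with the replicate block), and the median was 0.42. Beside this stand 7.12% of all tested genes (7.99% with the replicate block) and a median of -0.02. Those of smallest p were the helicase genes Mcm7 (0.64) and Mcm6 (0.83), Dut (0.62) and Ccne1 (0.42). Of 25 mitosis genes 11 rose (14 with the replicate block) and the median was 0.30; smallest in p were Bub1b (0.63), Kif2c (0.64), Cenpa (0.77) and Nek2 (0.64). None of the genes in these 4 lists fell. The fold change of Cdca5, 0.80, lay between those of Cenpa and Mcm6, while the ring subunits, at 0.13 to 0.27, lay below the medians of both lists. These 4 lists were chosen with earlier results of these data known, so their counts and medians are a description. That the members of the lists differ in size of change was not tested.

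**Figure D4:**
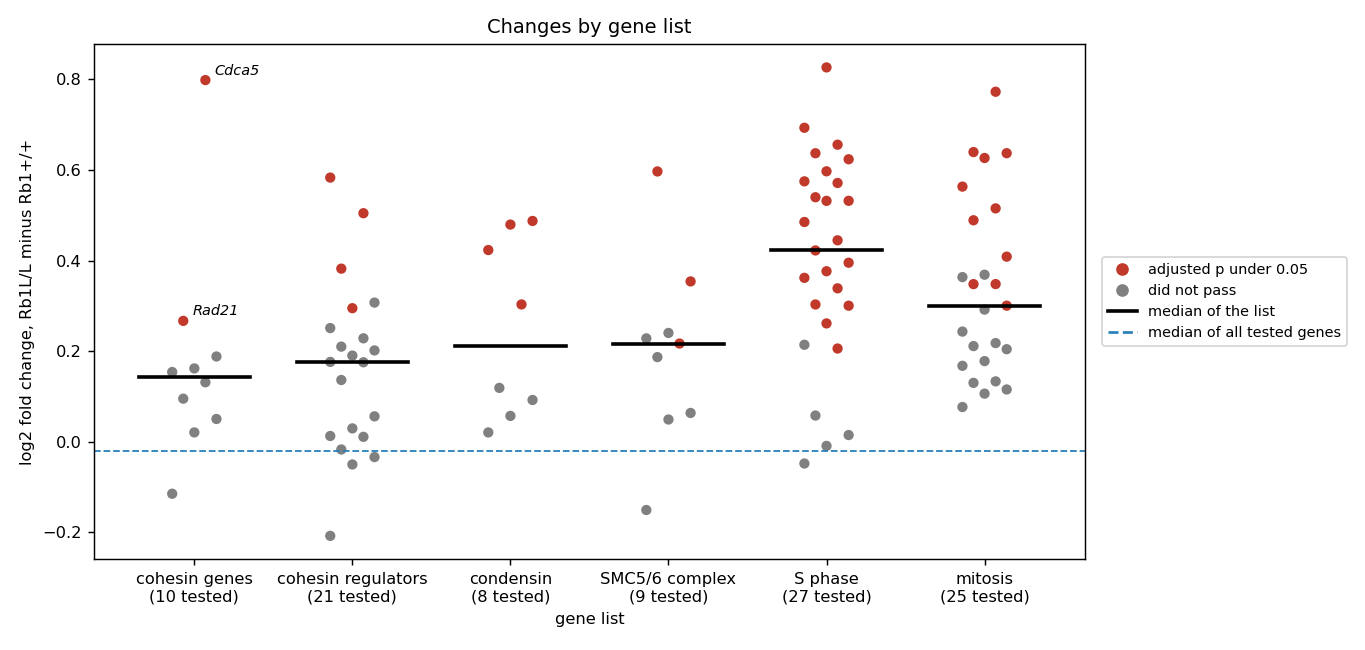
Log2 fold change (y axis, Rb1L/L minus Rb1+/+) of every tested gene in 6 gene lists (x axis), red where the adjusted p passed and grey where it did not, with the median of each list as a black bar and the median of all tested genes as a dashed line at -0.02. Cdca5 stands at the height of the highest S phase and mitosis genes, and the remaining cohesin genes lie around the list median of 0.14.

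Many of these genes had their lowest level in the same array. Rb1+/+ replicate 1 was the lowest of the 6 arrays for 9 of the 10 cohesin genes, Nipbl being the exception, and for 17.8% of all tested genes. The same array was lowest for 25 of 25 mitosis genes, 19 of 27 S phase genes and 6 of 8 condensin genes. The mean log2 level of the 10 cohesin genes was 9.378, 9.363 and 9.383 in Rb1L/L, against 9.075, 9.289 and 9.235 in Rb1+/+. For the mitosis genes it was 9.68, 9.77 and 9.73 in Rb1L/L, against 9.17, 9.52 and 9.47 in Rb1+/+, and for the S phase genes it was 9.715 to 9.803 in Rb1L/L, against 9.268 to 9.435 in Rb1+/+. The cohesin means of the Rb1L/L arrays spanned only 9.363 to 9.383, so their order beside the mitosis and S phase means is not read. The part of cell cycle phase in the cohesin values was not tested, and in bulk RNA a larger share of cycling cells cannot be told apart from more transcript per cell.

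Among the 10 genes the pair numbered 1 gave the highest difference for 8, Cdca5 and Rad21 being the exceptions, and the pair numbered 2 the lowest for 8. In the pair numbered 1, 9 genes were higher in Rb1L/L, in the pair numbered 2 only Smc1a, Rad21, Stag1 and Cdca5 were, and in the pair numbered 3 there were 8. For 7 of the 10 genes the SD was smaller among Rb1L/L than among Rb1+/+ arrays. Pds5b had the widest contrast in spread, with an SD of 0.01 in Rb1L/L and 0.15 in Rb1+/+ (n = 3 each). The Rb1+/+ SD includes replicate 1, the lowest array for 9 of the 10 genes. Neither the pair orders and directions nor a smaller SD in Rb1L/L was counted over all tested genes. A genotype difference in spread was not tested.

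**Figure D5:**
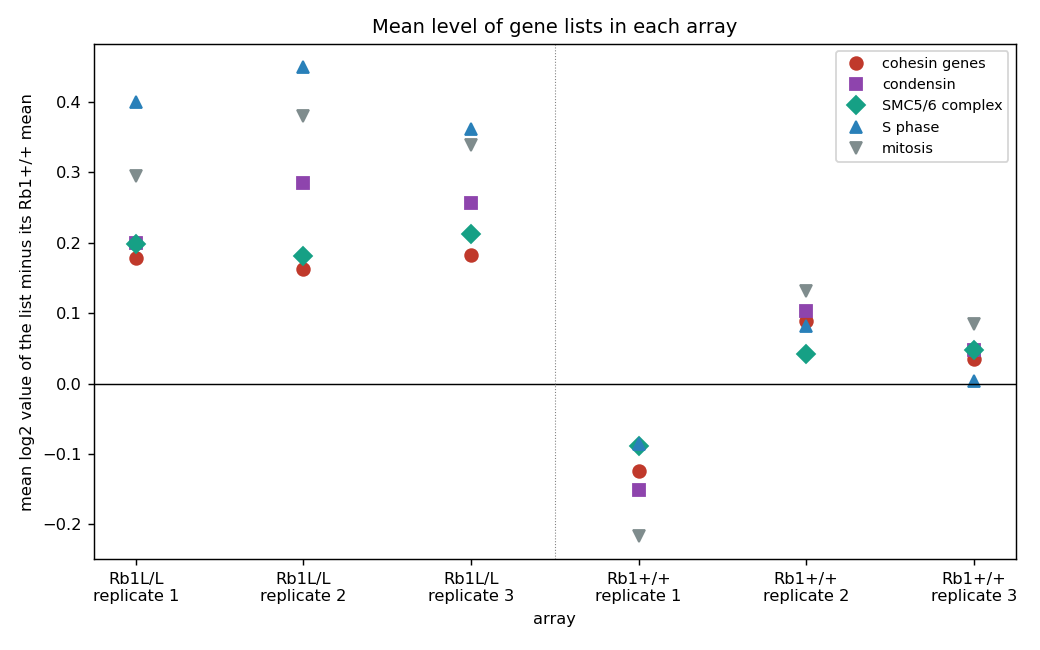
Mean log2 value of each gene list minus its mean over the Rb1+/+ arrays (y axis) in each array (x axis, Rb1L/L arrays to the left of the dotted line, Rb1+/+ arrays to the right), 1 symbol per list. All 5 lists are higher in the 3 Rb1L/L arrays than in any Rb1+/+ array, and all are lowest in Rb1+/+ replicate 1.

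Rb1 itself had a log2 fold change of 0.11 ± 0.10 (SE; limma adjusted p = 0.519), and since the altered allele is transcribed this does not check the labels. All 10 fibroblast markers were well expressed, with means from 8.84 for Col3a1 to 13.43 for Vim. Their mean log2 level was lower in every Rb1L/L array, at 11.27 to 11.30 in Rb1L/L, against 11.331 to 11.425 in Rb1+/+. A positive fold change was found in 2 of the 10, beside 43.6% of all tested genes. In 4 of the 10 the Rb1L/L arrays were all below the Rb1+/+ arrays, beside 2830 of 15455 tested genes. Col3a1 alone passed (-0.33, limma adjusted p = 0.0112). Of all tested genes 7.12% passed as higher and 5.08% as lower, for comparison with all marker counts here. Of 10 tested macrophage and blood markers 3 rose (Adgre1, Cd14 and C1qa) and 1 fell (Cx3cr1), and their mean log2 level was 7.26 to 7.65 in Rb1L/L, against 6.97 to 7.46 in Rb1+/+; Hbb-y was below the detection level. Of the endothelial markers Kdr rose while Pecam1 was below the detection level (mean level 6.45 to 6.69 in Rb1L/L, against 6.37 to 6.70 in Rb1+/+), no epithelial marker passed and Epcam was below it (6.55 to 6.72 in Rb1L/L, against 6.53 to 6.68 in Rb1+/+), and of 8 muscle and neural markers Tubb3 fell (6.765 to 6.799 in Rb1L/L, against 6.841 to 6.91 in Rb1+/+). The part of other cell types in the cohesin values was not tested.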

How the data were processed

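The deposited table holds log2 values per transcript cluster made with RMA, and Partek is the other tool named, per the submitters' processing notes; no source used here gives the annotation build. Quantile normalization within RMA removes a change shared by most genes, and folds of dim genes are compressed on arrays. Arrays carry no read depth; precision is limited by their number, 3 per genotype. Of 35556 clusters 21789 carried 1 gene symbol (1621 several, 12146 none); symbols were updated by Entrez ID (21698 found in the RefSeq table of GRCm38.p6), giving 19938 genes, with the brightest cluster taken where a gene had several. Genes were tested when their mean over the 6 arrays exceeded a detection level of log2 5.084, below which 90% of 1190 odorant and pheromone receptor genes lay. The genotype test used limma 3.58.1 (R 4.3.3; lmFit and eBayes without a block; SE and 95% intervals are moderated). Same-numbered arrays deviated together (r = 0.301, 0.243 and 0.299 over tested genes; 0.124, 0.198 and 0.261 without X and Y) and the design speaks of pairs, so blocked values stand beside the calls and counts they change. Members and lists were chosen with earlier results of these data known. All 10 members are named; of other lists, those past the threshold, up to the 4 of smallest p, and core regulators; Aurkb, Sgo2a, Timeless and the SMC genes of other complexes were named after their values were seen. Alternatives covered the block, moderation, array weights, centring, normalization, filters, cluster choice and left-out arrays. The fit was tested on simulated data.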

Additional observations from a re-analysis of the deposited data

How the results depend on the processing

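The array number sets the limits here: without single arrays or pairs the number of cohesin genes called was 1 to 2, of cohesin regulators 0 to 3, and of all tested genes 92 to 1441. The count of all genes was 629, 622 and 1187 without Rb1L/L replicates 1, 2 and 3, and 822, 1441 and 911 without Rb1+/+ replicates 1, 2 and 3; that of cohesin regulators was 2 without Rb1L/L replicate 1, Rb1L/L replicate 2 or Rb1+/+ replicate 3, and 3 without any other single array (without Rb1+/+ replicate 1 these included Sgo2a, as lower). Rad21 then had log2 fold changes of 0.2362 to 0.2946, and it missed the threshold in all of these fits but the one without Rb1+/+ replicate 2 (adjusted p = 0.044). Signs turned in these fits for Wapl (-0.0064 to 0.1799), Pds5a (-0.0204 to 0.1137), Pds5b (-0.0641 to 0.094), Stag1 minus Stag2 (-0.0473 to 0.072), Smc1a minus Smc3 (-0.0303 to 0.0963), Mau2 (-0.0092 to 0.0299), Esco1 (-0.0432 to 0.0239), Hdac8 (-0.0218 to 0.113), Ctcf (-0.0704 to 0.0997), Naa50 (-0.0021 to 0.0959) and Mcph1 (-0.1043 to 0.0418); none of these was called in any fit, and the cause was not tested.

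With all arrays, the replicate block, trended or robust moderation, array weights, median centring, quantile normalization, both other filters and cluster means left Cdca5 (0.77 to 0.82) and Rad21 (0.25 to 0.29) as the members called. The number of cohesin regulators called ran from 3 (quantile normalization) to 6 (the block, or a mean above log2 6) against 4, and Timeless passed with array weights (adjusted p = 0.0462) and a mean above log2 6 (0.0421). Among them signs turned for Esco1 after median centring (0.0041) and Ctcf after quantile normalization (-0.0202). Over all genes, 1259 were higher and 597 lower after median centring, against 1100 and 785. Among the 10 cohesin genes and 21 regulators, the block changed no call other than those of Aurkb and Espl1, and it raised the count of all genes called to 2233.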
